A study of Mus musculus with 2 samples.

Results

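The 10 genes Cnn1, Cnn2, Cnn3, Acta2, Actg2, Tagln, Myl9, Tpm1, Tpm2 and Fhl1, which encode proteins of the contractile apparatus of smooth muscle and relatives of these proteins, were followed in mouse keratinocytes, the main epidermal cell type. All gene probes that carry one of these names on the array were taken. This gave 18 probes for the 10 genes, of 41174 gene probes on the array. All 18 probes and 10 genes passed the filter on dim signals, which left 23519 probes and 13739 genes tested in all. The genes were selected on their log2 ratios on these same arrays. Their values are therefore given as a description, and no test result is read from them.

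Each of 2 two-colour arrays set total RNA of wild-type keratinocytes, labelled with Cy3, against total RNA of CHUK-LoxP mutant keratinocytes, labelled with Cy5, and the arrays form 1 group of 2 replicates. The labels describe the mutant cells as deleted for CHUK (Chuk in the mouse), which encodes IKKα, 1 of the kinases that activate NF-κB. They do not say which Cre recombinase acted on the loxP sites, or give the strain, the age of the animals, whether the cells were cultured, or whether the RNAs came from separate cultures, so SDs and p-values reflect array-to-array spread alone, possibly technical. No dye swap was named. Dye and genotype therefore cannot be told apart.

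Smooth muscle cells shorten when myosin pulls on actin filaments, a reaction switched on by phosphorylation of the myosin regulatory light chain. Actin isoforms build the filament, tropomyosins lie along it, and calponins and transgelin bind and stabilise it. Serum response factor, SRF, binds a short DNA element named the CArG box and drives many of these genes together with its cofactors of the myocardin and MRTF family. MRTFs are held back by unpolymerised actin, which ties these genes to the state of the cytoskeleton in cells other than muscle too.

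Promoter sequences were read because the genes are known as SRF targets and had unequal ratios, and the 4 shown are those in which a CArG match was found. RefSeq (GRCm38.p6) promoter windows, from 250 bases before to 50 bases after an annotated start, were at hand for 8 of the 10 genes. Actg2 and Tagln were not among them. Fhl1 had 2 windows, at different annotated starts, and only the 1 with a CArG match is shown. The window upstream of the start is printed 5′ to 3′ on the gene's strand, with CArG matches in capitals. Acta2 lies at chr19:34255374-34255623 on the minus strand, and Myl9 at chr2:156775214-156775463, Fhl1 at chrX:56779433-56779682 and Cnn2 at chr10:79988350-79988599 lie on the plus strand.
Acta2: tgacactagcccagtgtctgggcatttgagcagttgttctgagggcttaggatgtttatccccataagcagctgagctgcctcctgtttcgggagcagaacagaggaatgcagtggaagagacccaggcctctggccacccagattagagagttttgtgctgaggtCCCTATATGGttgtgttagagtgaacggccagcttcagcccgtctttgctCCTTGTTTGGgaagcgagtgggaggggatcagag
Myl9: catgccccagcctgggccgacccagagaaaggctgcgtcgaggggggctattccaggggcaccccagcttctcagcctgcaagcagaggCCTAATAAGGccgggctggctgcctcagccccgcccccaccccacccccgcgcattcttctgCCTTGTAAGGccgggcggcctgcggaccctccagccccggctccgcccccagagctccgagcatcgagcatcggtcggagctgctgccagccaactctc
Fhl1: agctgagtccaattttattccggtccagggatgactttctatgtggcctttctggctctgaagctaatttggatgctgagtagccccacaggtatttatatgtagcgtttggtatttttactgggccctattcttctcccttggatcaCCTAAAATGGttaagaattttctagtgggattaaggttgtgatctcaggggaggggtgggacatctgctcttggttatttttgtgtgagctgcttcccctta
Cnn2: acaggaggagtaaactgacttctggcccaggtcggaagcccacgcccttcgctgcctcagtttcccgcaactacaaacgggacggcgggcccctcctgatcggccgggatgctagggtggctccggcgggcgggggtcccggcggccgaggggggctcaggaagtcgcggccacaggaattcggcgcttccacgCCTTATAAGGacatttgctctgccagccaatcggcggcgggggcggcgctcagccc

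The exact CArG box, a pair of C, a run of A or T and a pair of G, was found in the windows of Cnn2 and Myl9. It was also found in 1 of the 2 windows of Fhl1, and the other held no match. It occurs in 1.63% of all 32851 windows. A CArG-like form with 1 G or C inside the run was found in Acta2, which held 2 such matches, and in Myl9, and it occurs in 8.5% of windows. Both forms read the same on both strands. The Acta2 matches begin at positions -84 and -34, counted from the annotated start. CATTCC, searched on both strands as the core of the element bound by TEAD factors, was found in Acta2 and Tpm1 and in 14.7% of windows. None of these matches overlapped another. Cnn1, Cnn3, Tpm1 and Tpm2 held neither CArG form in these letters, which says nothing of other parts of the genes. Of the 4 genes with the highest log2 ratios, Cnn1 held no CArG match, and Fhl1 (in 1 of its windows), Acta2 and Myl9 did. Of the lower genes with a window, Cnn2 held a match and Tpm2, Tpm1 and Cnn3 did not. Whether matches go with the ratios was not tested.

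Both arrays came from 1 slide and 1 scan. Of gene spots, 53.2% to 59.1% were well above background in Cy3 and 57.4% to 64.5% in Cy5. Chuk was measured by 2 probes, which had more signal in the channel labelled Chuk-deleted (mean log2 ratios of 0.74 and 0.85), against the label. They lay at -0.026 and 0.090 under the spike-in subtraction described next. The place of the probes relative to the deleted part is not given, and every direction below rests on the labels of the channels. The scaling of the channels also sets directions. The median log2 ratio of all genes was 0.02 after loess, the setting used throughout. It lay 0.53 higher when each array was centred on its median alone, and 0.76 lower when the mean log2 ratio of the spike-in controls was subtracted on each array, called spike-in subtraction here. Single spike-in controls ran from -1.61 to 3.02 on array 1 and from -2.07 to 3.70 on array 2, around means of 0.68 and 0.84. Each control had the same sign on both arrays, and the lowest and the highest were the same controls. Their range therefore does not measure how well 0 is fixed. Intended ratios of the controls were not used, so the position of 0 under spike-in subtraction was not established.

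Several of the 10 genes were among the highest of the whole array in the channel labelled Chuk-deleted, but not evenly. Cnn1, the calponin of smooth muscle, was 9.17-fold higher and ranked 1 of 13739 genes by mean log2 ratio. Fhl1, a LIM domain protein of muscle, ranked 5 and was 6.79-fold higher. Acta2, smooth muscle α-actin, ranked 13 and was 4.87-fold higher, and Myl9, the regulatory light chain, ranked 56 and was 3.04-fold higher. These 4 genes were at least 2-fold higher on both arrays, as were 1.5% of all genes tested. Higher on both arrays were 9 of the 10 genes, against 47.4% of all genes, and lower on both were 0, against 41.9%. The exception was Cnn3, whose arrays differed in sign. By probe, 17 of 18 were higher on both arrays, against 47.3% of all probes tested. Acta2 supplied 5 of the 18. Its probe A_52_P644232 passed the filter on dim signals through Cy5 alone, so the filter largely set its direction. Another, A_52_P239556, had Cy3 well above background on 1 of the 2 arrays. Under spike-in subtraction 5 of the 10 genes were higher on both arrays. The median of the 10 genes was 0.82, beside 0.02 for all genes. In the limma fit 9 of the 10 were called higher and 0 lower, where 33% of all genes were called higher and 28.3% lower, and nothing is read from these counts, since the choice of genes used this contrast.

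**Figure D1:**
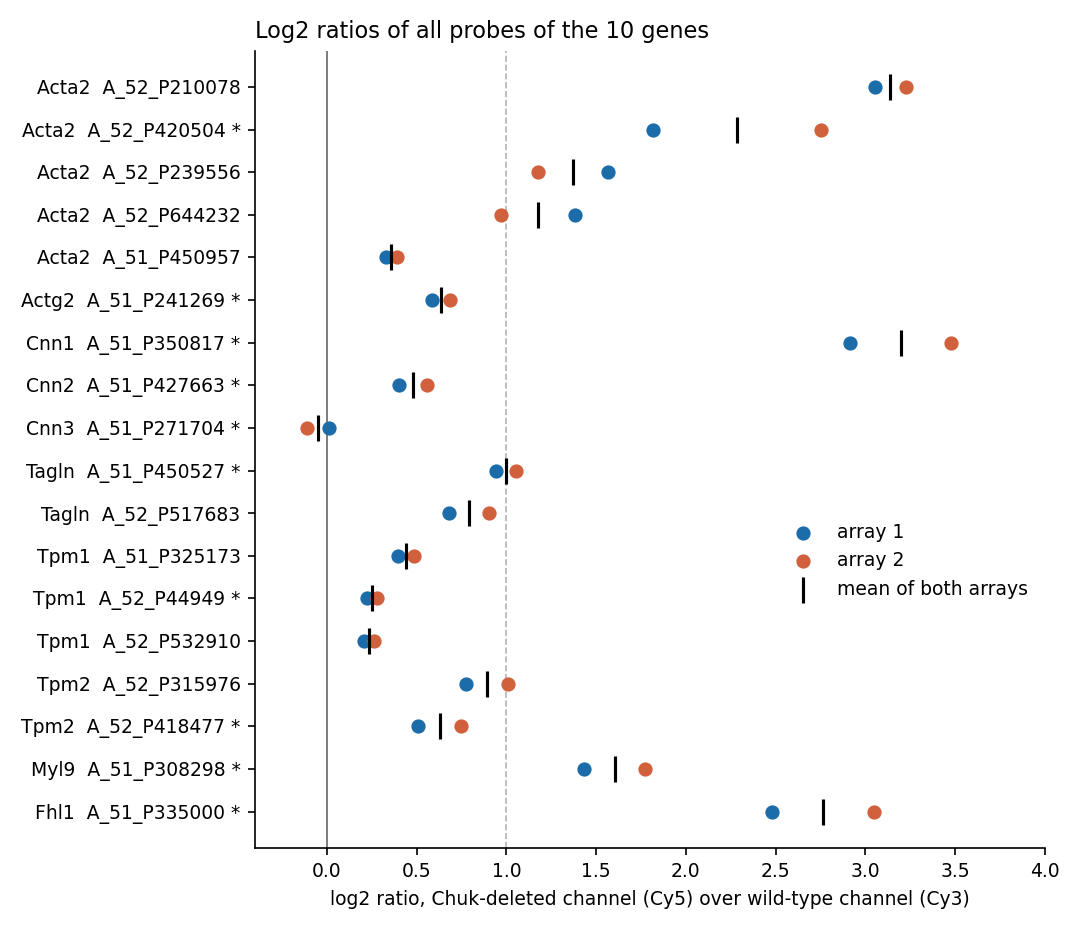
Log2 ratio of Cy5 (channel labelled Chuk-deleted) over Cy3 (wild-type channel) on the x axis for each of the 18 probes, after loess, with array 1 in blue, array 2 in orange and the mean as a bar. The asterisk marks the brightest probe, which stands for its gene, and the dashed line a 2-fold difference; the Acta2 probes spread from 0.36 to 3.14 in the mean, and Cnn3 lies at 0 on the axis within its spread. With spike-in subtraction the probes of Actg2, Cnn2 and Tpm1, the brightest Tpm2 probe and the Acta2 probe A_51_P450957 lie below 0, and the other Tpm2 probe lies at 0.13.

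Acta2 encodes the actin isoform that fills the thin filaments of vascular smooth muscle and of myofibroblasts. It was measured by 5 probes, whose ratios did not coincide. The brightest, A_52_P420504, was printed in 10 spots on each array. Its processed signal, the intensity after the scanner software's background subtraction and dye normalisation, was 19829 in the wild-type and 69534 in the channel labelled Chuk-deleted on array 1, and 11405 and 77758 on array 2. The channels thus lay far apart on both arrays, and the gap was wider on array 2, where the wild-type signal was lower. Its log2 ratios were 1.81 and 2.75 (mean 2.28 ± 0.66, SD, n = 2). The spots within an array lay close together, from 1.75 to 1.86 on array 1 and from 2.69 to 2.83 on array 2, so the arrays differed by more than the spots did.

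A dimmer probe of the same transcript, A_52_P210078, gave the highest Acta2 ratios, 3.05 and 3.23 (mean 3.14 ± 0.12, 8.81-fold). A_51_P450957, also of that transcript, gave the lowest, 0.33 and 0.39 (mean 0.36 ± 0.04, 1.28-fold), with processed signals of 19031 and 24335 on array 1 and 15161 and 19656 on array 2. This probe was bright in both channels, and the gap between it and the other Acta2 probes was larger than the spread between arrays. With spike-in subtraction it lay at -0.40, while A_52_P210078 lay at 2.38.

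The other pair of Acta2 probes was made from cDNA clones and was dim. A_52_P239556 gave 1.56 and 1.18 (mean 1.37 ± 0.27), with its wild-type signal well above background on 1 of the 2 arrays. A_52_P644232 gave 1.38 and 0.97, with its wild-type signal not well above background on either array, so that it was at least 2.16-fold higher, the bright channel set against the lowest signal well above background. Such a bound can carry dye bias, as no swap balanced the dyes. In the software's own ratios, which add no offset to dim signals, these probes stood at 3.104 and 3.927. All 5 probes were higher on both arrays under loess. Probes of actin isoforms may share targets, and since the files used here hold no probe sequences, this was not tested.

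Actg2, the smooth muscle γ-actin of the gut wall, had processed signals of 2229.6 and 3373 on array 1 and of 3585 and 5829 on array 2, wild-type channel first. It was higher by a similar step on both arrays, with log2 ratios of 0.59 and 0.68 (mean 0.63 ± 0.07, 1.55-fold), and lay at -0.13 under spike-in subtraction. Within each array Acta2 exceeded Actg2 by 1.23 and 2.07 in log2 ratio, a difference that a shift of the whole array leaves as it is. The actins of striated muscle were higher too. Actc1 rose by 2.27 ± 0.61 (1.84 and 2.70 on the arrays, adjusted p = 0.000147, limma with Benjamini-Hochberg adjustment), and Acta1 by 1.67 ± 0.56 (1.28 and 2.07). On each array the Actc1 ratio differed from that of Acta2 by at most 0.05. The cytoplasmic actin Actb rose by 0.50 ± 0.15 and lay at -0.27 under spike-in subtraction, and Acta2 exceeded it by 1.42 and 2.15.

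Calponins bind actin and restrain the myosin motor, and the family was unequal. Cnn1, the isoform of differentiated smooth muscle, had processed signals of 1073 in the wild-type and 8706 in the channel labelled Chuk-deleted on array 1, and of 812 and 10329 on array 2. The 2 channels were far apart on both arrays, with log2 ratios of 2.92 and 3.48 (mean 3.20 ± 0.40). By the software's ratios it ranked 5 of all genes, and with median centring alone it ranked 1.

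Cnn2, a calponin of many cell types, went from 17217 to 23073 on array 1 and from 16067 to 23543 on array 2. Its log2 ratios were 0.40 and 0.56 (mean 0.48 ± 0.11), and under spike-in subtraction its mean was -0.28. Cnn3, the acidic calponin, went from 34374 to 34791 on array 1 and from 28850 to 26935 on array 2. Its ratios of 0.01 and -0.11 lay on both sides of 0 (mean -0.05 ± 0.09), with -0.81 under spike-in subtraction and 0.77 with median centring alone. Cnn1 exceeded Cnn2 by 2.51 and 2.92 on the arrays, and Cnn3 by 2.90 and 3.59.

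Tagln, the gene of transgelin or SM22α, a calponin-related actin bundling protein, was measured by 2 probes. The brighter had processed signals of 30889.5 and 59531 on array 1 and of 33223.5 and 69190.3 on array 2. Its log2 ratios were 0.94 and 1.05 (mean 0.997 ± 0.077), which placed it just under the 2-fold line on array 1 and just over it on array 2. The other probe gave 0.68 and 0.90 (mean 0.79 ± 0.16). With spike-in subtraction they lay at 0.23 and 0.03. The relative Tagln2, expressed in many tissues, rose by 0.37 on each array, and Tagln exceeded it by 0.57 and 0.68.

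**Figure D2:**
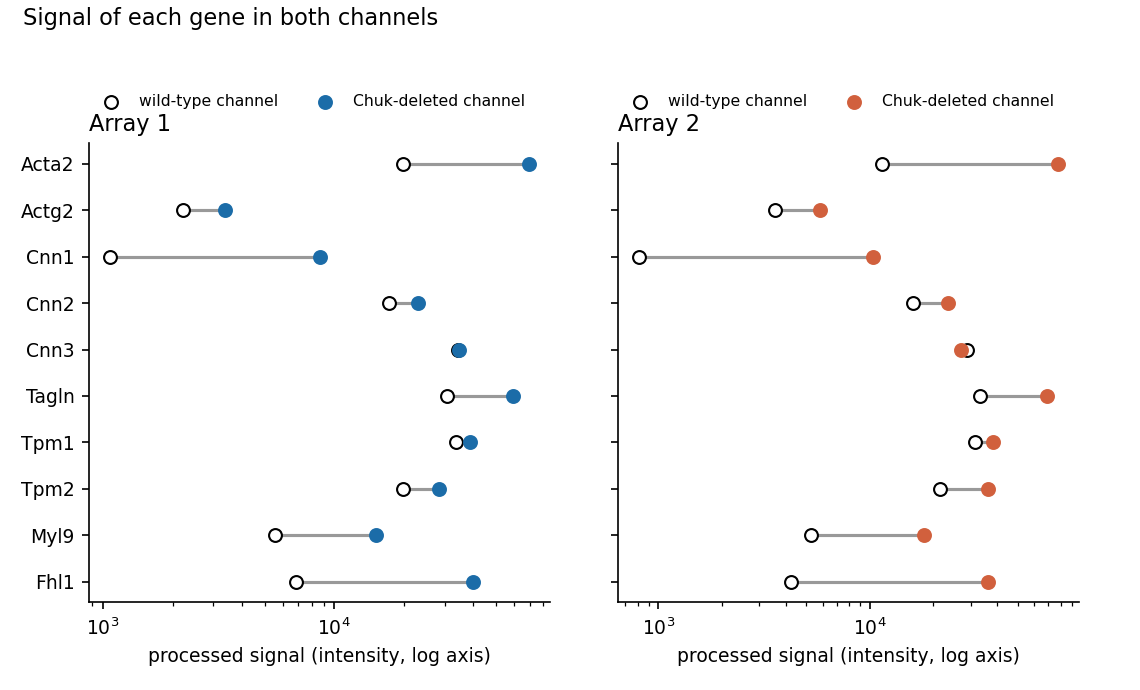
Processed signal of the brightest probe of each of the 10 genes on a log axis, in the wild-type channel (open) and the channel labelled Chuk-deleted (filled), with 1 panel per array. Cnn1, Fhl1, Acta2 and Myl9 show the widest gaps, while the circles of Cnn3 nearly coincide; signals of different probes are not comparable as levels.

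Tropomyosins are rods that lie along the actin filament and control the access of myosin. Tpm2, the β isoform, was higher by both of its probes. A_52_P418477 had processed signals of 19936 and 28391 on array 1 and of 21481 and 36387 on array 2, with log2 ratios of 0.51 and 0.75 (mean 0.63 ± 0.17). A_52_P315976 gave 0.78 and 1.01 (mean 0.89 ± 0.17). With spike-in subtraction the probes lay at -0.14 and 0.13.

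Tpm1, the α isoform, had the lowest ratio of the 9 genes that were higher on both arrays. Its brightest probe had processed signals of 33558 and 38773 on array 1 and of 31540.2 and 38192 on array 2, with log2 ratios of 0.23 and 0.28 (mean 0.25 ± 0.04). A second probe of that transcript gave 0.20 and 0.26, and a probe made from a cDNA clone gave 0.40 and 0.48. The clone's probe therefore lay above both others by more than the spread between arrays. All 3 lay below 0 under spike-in subtraction (-0.51, -0.53 and -0.32). Tpm2 exceeded Tpm1 by 0.28 and 0.47 on the arrays. Their relatives Tpm4 and Tpm3, which serve the cytoskeleton of cells other than muscle, rose by 0.37 ± 0.02 and 0.18 ± 0.04.

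Myl9 encodes the regulatory light chain whose phosphorylation starts contraction. Its processed signals were 5555 and 15103 on array 1 and 5303 and 18065 on array 2. The wild-type signals were near each other, those of the other channel were well above them, and the log2 ratios were 1.43 and 1.77 (mean 1.60 ± 0.24, and 0.84 under spike-in subtraction). The non-muscle regulatory light chain gene Myl12b lay at 0.02 ± 0.07 and was not called, nor was Myl12a at -0.09 ± 0.01. Myl9 exceeded Myl12b by 1.37 and 1.80. The essential light chain gene Myl6 rose by 0.67 ± 0.02.

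Fhl1 encodes a protein of repeated LIM domains found at sarcomeres and focal adhesions. Its processed signals were 6864 and 39790 on array 1 and 4233 and 36196 on array 2. The wild-type signal was far below the other on both arrays, with log2 ratios of 2.48 and 3.05 (mean 2.76 ± 0.40, and 1.999 under spike-in subtraction). Of its relatives, Fhl2 fell by 0.44 ± 0.04 and Fhl3 rose by 0.28 ± 0.08. Fhl2 changed sign with median centring alone, to a higher signal in the channel labelled Chuk-deleted (log2 ratio 0.32). Fhl1 exceeded Fhl2 by 2.89 and 3.52.

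In order of mean log2 ratio the genes ran Cnn1, Fhl1, Acta2, Myl9, Tagln, Actg2, Tpm2, Cnn2, Tpm1 and Cnn3. The values on the 2 arrays overlapped between Cnn1 and Fhl1, between Fhl1 and Acta2, between Actg2 and Tpm2 and between Tpm2 and Cnn2, so the means of these neighbours lay within the spread between arrays. Within each array, where both genes share the same RNAs, Cnn1 exceeded Fhl1 by 0.44 and 0.43, Fhl1 exceeded Acta2 by 0.66 and 0.29, and Tpm2 exceeded Cnn2 by 0.10 and 0.19. Actg2 and Tpm2 changed places, with differences of 0.08 and -0.06. The ranges of the other neighbours did not overlap. The 4 genes furthest from 0 lay above every gene from Tagln downward on both arrays. The size of the ratio was larger on array 2 in 10 of the 10 genes and in 63.8% of all genes tested. On array 1 the nearest gene above the 2-fold line, a log2 ratio of 1, was Myl9 at 1.43, and the nearest below it was Tagln at 0.94.

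**Figure D3:**
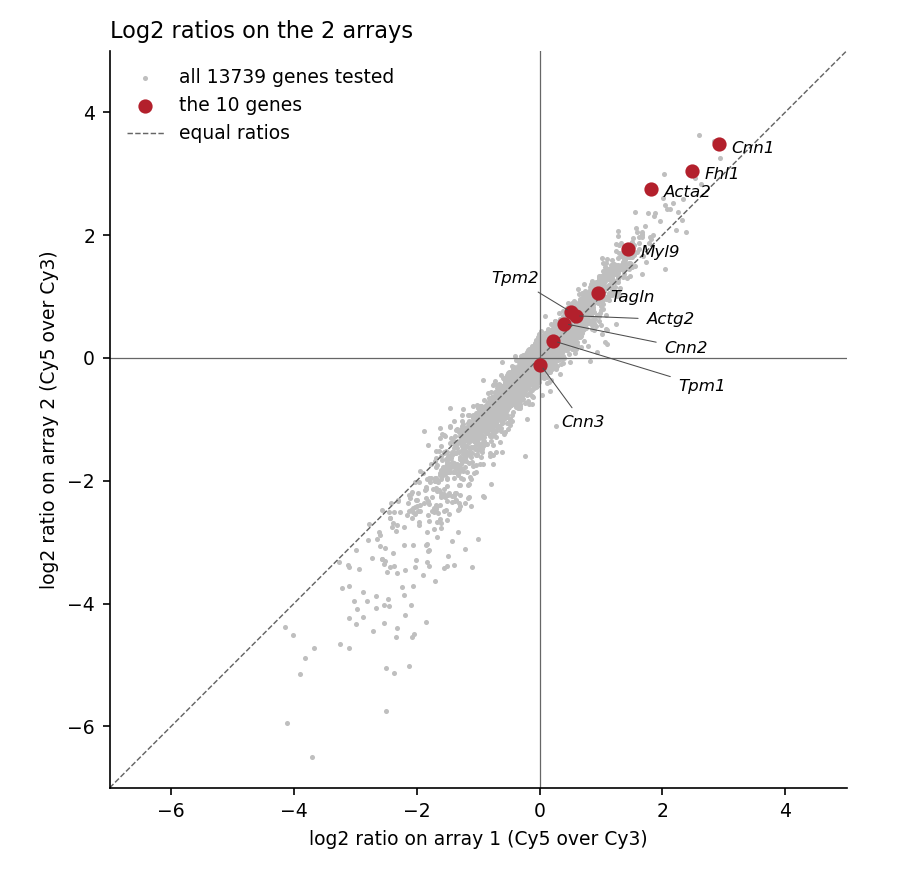
Log2 ratio on array 1 (x) against array 2 (y) for the 13739 genes tested in grey and the 10 genes in red, after loess, with a dashed line of equal ratios. Cnn1, Fhl1, Acta2 and Myl9 stand at the upper end, and Cnn3 lies near the origin.

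Median centring alone and spike-in subtraction each moved all 10 genes in 1 direction, and the upper 4 stayed well clear of 0. Spike-in subtraction is 1 shift per array. Median centring alone leaves out the loess correction for dye differences that vary with brightness, so its shifts differed between genes. Under it Cnn1 went from 3.20 to 3.85 and Cnn3 from -0.05 to 0.77. With median centring alone Cnn1 stood at 3.85, Fhl1 at 3.52, Acta2 at 3.097 and Myl9 at 2.31, over a median of all genes of 0.55. With spike-in subtraction they stood at 2.43, 1.999, 1.52 and 0.84, over a median of -0.74. The lower genes changed sign there: Actg2, Tpm2, Cnn2 and Tpm1 lay between -0.13 and -0.51, still above the median of all genes, and Cnn3 at -0.81 lay below it. The median of the 10 genes exceeded that of all genes by 0.79 under loess and under spike-in subtraction, and by 1.07 with median centring alone. The gap of 1.07 is without the correction for brightness.

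**Figure D4:**
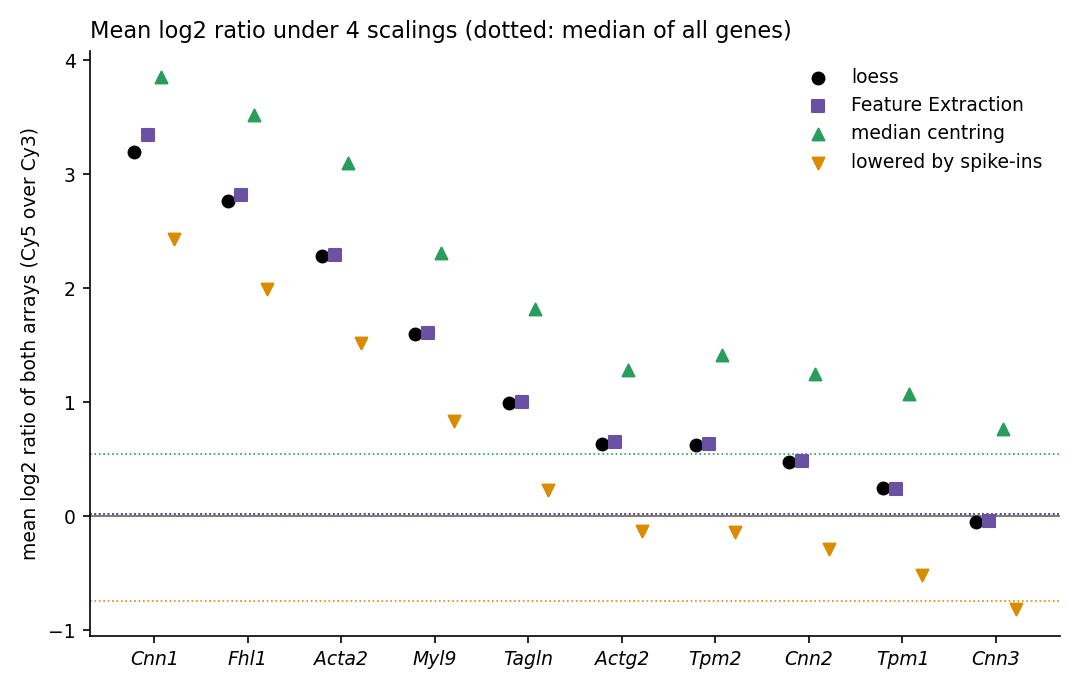
Mean log2 ratio of both arrays (y) for each of the 10 genes (x) under 4 scalings, with the median of all genes under each as a dotted line. Cnn1, Fhl1, Acta2, Myl9 and Tagln stay above 0 under all 4, while Actg2, Tpm2, Cnn2 and Tpm1 fall below 0 under spike-in subtraction.

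Genes around the smooth muscle program were read from 7 lists with 97 genes, of which 87 were tested. Of these, 51 rose and 11 fell (9 and 57 under spike-in subtraction). Over the whole array 33% of genes rose and 28.3% fell under loess. Of the 13739 genes, 272 rose and 12503 fell under spike-in subtraction, and 10281 rose and 988 fell with median centring alone. List counts under each scaling are to be set beside these. The lists were drawn up with earlier results of these arrays known, and their medians are descriptions.

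Other genes of the smooth muscle program lay nearest to the 10 genes. Of 17 tested, 16 rose and 1 fell, with a median log2 ratio of 0.71 beside 0.02 for all genes (6 rose and 7 fell under spike-in subtraction, with a median of -0.05). Nexn, an actin binding protein of the Z-disc, rose by 1.56 ± 0.13 (adjusted p = 2.49e-05, limma). Lmod1, the smooth muscle leiomodin that nucleates actin filaments, rose by 1.33 ± 0.17, the actin and calmodulin binding caldesmon gene Cald1 by 1.29 ± 0.22 and Synpo2 by 1.11 ± 0.19. By the probes that stand for them, these 4 also stood above 0 under spike-in subtraction, at 0.80, 0.56, 0.52 and 0.34. Nexn, Cald1 and Synpo2 had 2 tested probes each, and these values are those of the brighter. After loess the means of both probes were lower, at 1.055, 1.109 and 0.693. The Synpo2 mean was smaller than the 0.76 by which spike-in subtraction lowered the ratios, so it would not stay above 0 there. Myh11, the myosin heavy chain that defines smooth muscle, was dim, with its wild-type signal well above background on 1 of the 2 arrays, and rose by 0.54 ± 0.13. Casq2, a calcium store protein, was the gene that fell (-0.95 ± 0.13). Des, Kcnmb1, Pln, Pdlim3 and Aoc3 were not tested, as their probes failed the filter on dim signals.

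SRF itself was modestly higher. Srf gave log2 ratios of 0.45 and 0.64 and rose by 0.54 ± 0.13 (adjusted p = 0.000623, limma), and its cofactor gene Mrtfa, also known as Mkl1, rose by 0.65 ± 0.08. The Mrtfa value is that of the brighter of 2 tested probes, and the mean of these probes was lower, at 0.32. Srf and Mrtfa lay below 0 under spike-in subtraction, at -0.22 and -0.12. Of 6 tested genes of SRF and its cofactors, 2 rose and 0 fell, with a median of 0.06 (0 rose and 4 fell under spike-in subtraction, 4 and 0 with median centring alone). Mrtfb, at -0.15 ± 0.07, and the ternary complex factor genes Elk3, at 0.10 ± 0.05, and Elk4, at 0.02 ± 0.03, were not called. Myocd, the gene of the cofactor myocardin that drives smooth muscle fate, and Elk1 failed the filter on dim signals.

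Relatives of the 10 genes rose in 10 and fell in 1 of 14 cases tested, the latter Fhl2 (median 0.32) (2 rose and 11 fell under spike-in subtraction, with a median of -0.44). Actc1 and Acta1, described above, led them. Other actin cytoskeleton genes known to respond to SRF and MRTF rose in 10 and fell in 2 of 19 cases tested (median 0.31) (0 and 12 under spike-in subtraction, 18 and 0 with median centring alone). The filamin gene Flna rose by 0.80 ± 0.19, the non-muscle myosin gene Myh9 by 0.77 ± 0.16, the kindlin gene Fermt2 by 0.77 ± 0.14 and Lpp, of focal adhesions, by 0.72 ± 0.10. The 2 that fell were the formin gene Diaph1 (-0.50 ± 0.03) and the α-actinin gene Actn4 (-0.48 ± 0.11), which stood at 0.16 and 0.36 with median centring alone. Vcl, the vinculin gene often used as an SRF target, lay at 0.06 ± 0.08 and was not called.

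SRF also serves immediate early genes, through ternary complex factors in place of MRTFs, and these were read as a separate list. Of 11 tested, 1 rose and 3 fell, where 33% of all genes rose and 28.3% fell, with a median of -0.03 beside 0.02 for all genes (0 and 10 under spike-in subtraction, 7 and 3 with median centring alone). Egr2 gave -2.74 and -3.26 (-3.00 ± 0.37, adjusted p = 2.25e-05, limma), Arc lay at -1.34 ± 0.08 and Egr3 at -1.25 ± 0.14, where the Cy5 signal of Egr3 passed background on 1 of the 2 arrays. The size of the Egr3 difference is therefore uncertain, with -3.05 by the software's ratios and -2.04 without the offset. Egr1, of the same family as Egr2, rose by 0.56 ± 0.18 (-0.20 under spike-in subtraction). Fos, at -0.03 ± 0.01, and Junb, at -0.14 ± 0.19, were not called.

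Of 9 tested targets shared by YAP and MRTFs, 4 rose and 2 fell, beside the same 33% and 28.3% of all genes, with a median of -0.09 (0 and 7 under spike-in subtraction, 7 and 0 with median centring alone). Ccn2, the connective tissue growth factor gene, rose by 0.998 ± 0.028 and Crim1 by 0.63 ± 0.02, while the thrombospondin gene Thbs1 fell by 0.80 ± 0.37 and Amotl2 by 0.53 ± 0.03. Amotl2 changed sign with median centring alone, to a log2 ratio of 0.15. The Thbs1 value is that of the brightest of 3 tested probes, and the mean of these probes was -0.29.

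Matrix and TGF-beta genes that mark myofibroblasts, the cells outside muscle best known for Acta2, rose in 8 and fell in 2 of 11 cases tested, with a median of 0.39 (1 and 6 under spike-in subtraction, with a median of -0.38). Tgfbi rose by 1.84 ± 0.24, Fn1, which encodes fibronectin, by 0.96 ± 0.19 and the collagen gene Col5a1 by 0.86 ± 0.14. The ligand gene Tgfb2 fell by 0.87 ± 0.04 and the receptor gene Tgfbr2 by 0.60 ± 0.03, and Tgfbr2 stood at 0.13 with median centring alone.

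**Figure D5:**
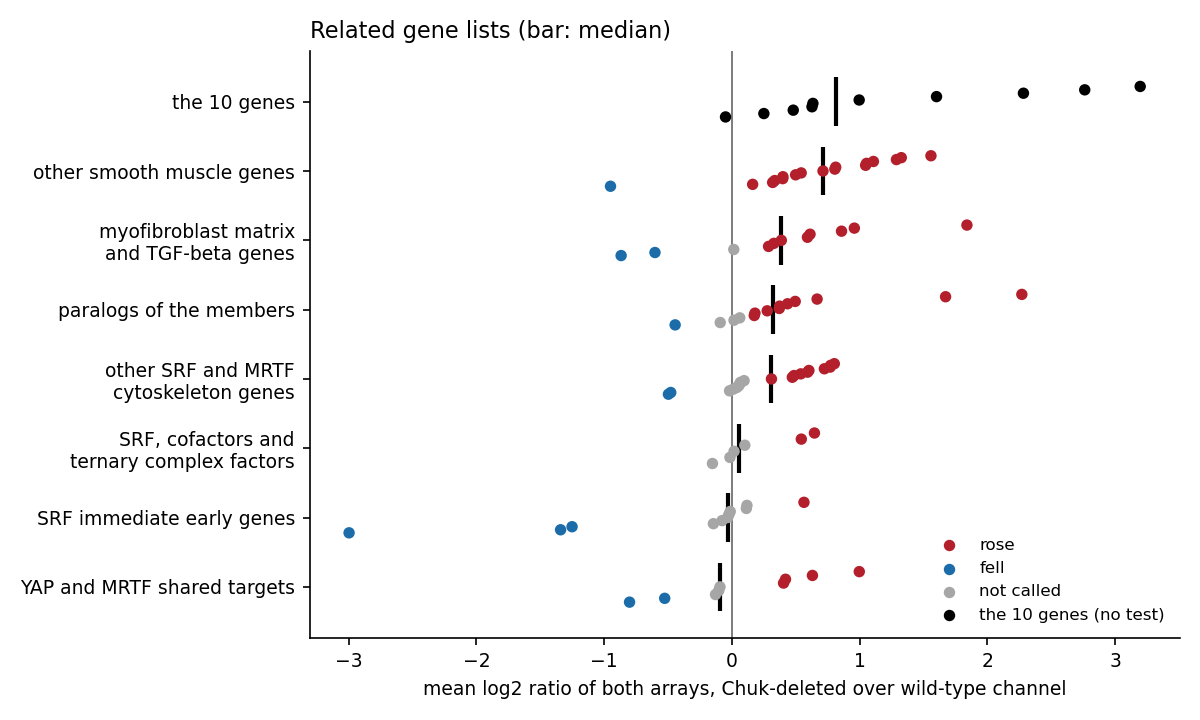
Mean log2 ratio of both arrays (x) for the 10 genes in black and for the tested members of 7 related lists, coloured by the limma call after loess (red rose, blue fell, grey not called), with the median of each as a bar. The other smooth muscle genes have the highest median of the lists, 0.71, and Egr2 at -3.00 is the lowest point; medians of all 7 lists lie below 0 under spike-in subtraction.

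Tested markers of smooth muscle and mural cells rose after loess, as did most fibroblast markers, while skeletal muscle markers went both ways. Since the arrays carry bulk RNA, a change in the share of such cells and a change of RNA per cell cannot be told apart. Of 10 markers of smooth muscle and mural cells, 5 were tested and all 5 rose, with a median of 1.20 (4 rose and 0 fell under spike-in subtraction, with a median of 0.43). These and the marker counts below stand beside 33% of all genes that rose and 28.3% that fell. Lmod1 and Myh11 were already counted among the other smooth muscle genes above. Cspg4 was the highest at 1.33 ± 0.21, and Myh11 the lowest. Mcam, at 1.20 ± 0.16, and Pdgfrb, at 1.07 ± 0.14, rose too. The summed processed signal of the list was 40115 and 32876 in the wild-type and 82163 and 79463 in the channels labelled Chuk-deleted. Desmin (Des), Rgs5, Kcnmb1, Kcnj8 and Abcc9, which define these cells, were not well above background in either channel.

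Fibroblast markers were measured in 12 of 12 cases, of which 10 rose and 1 fell, with a median of 0.66 (4 and 5 under spike-in subtraction, 11 and 0 with median centring alone). They ranged from Fbln2 at 1.84 ± 0.38 to Dcn at -0.60 ± 0.03, and their summed signal was 108886 and 78562 in the wild-type and 231634 and 208206 in the channels labelled Chuk-deleted. The part of fibroblast or mural cells in the ratios of the 10 genes was not tested. Skeletal muscle markers were mostly dim: 4 of 13 were tested, of which 1 rose and 1 fell, from Tnni2 at 0.51 ± 0.12 to Myog at -0.64 ± 0.01 (0 and 4 under spike-in subtraction). Their summed signal was 7049 and 8144 in the wild-type and 9319 and 12027 in the channels labelled Chuk-deleted. Actn2, Ckm, Des, Myf5, Myh1, Myh4 and Tnnt3 were not well above background on either array.

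Keratinocyte markers had a summed processed signal of 782020 and 707399 in the wild-type and of 1063040 and 1035530 in the channels labelled Chuk-deleted, and all 10 were tested. Of them 6 rose and 4 fell (2 and 6 under spike-in subtraction, 8 and 1 with median centring alone), from the integrin gene Itgb4 at 1.57 ± 0.39 to the desmoplakin gene Dsp at -0.91 ± 0.06. Endothelial markers were tested in 2 of 8 cases, Kdr at 0.21 ± 0.02 and Vwf at -0.43 ± 0.04, and Cldn5, Emcn, Pecam1 and Tek were not well above background. Of 6 macrophage markers 4 were tested, of which 0 rose and 2 fell (0 and 4 under spike-in subtraction, 2 and 2 with median centring alone), from Cd68 at 0.13 ± 0.06 to Adgre1 at -1.15 ± 0.17, with Itgam and Ptprc not well above background. The 2 that fell, Adgre1 and Csf1r, and also Vwf had Cy5 signals well above background on 1 of the 2 arrays. Krt1, a keratinocyte marker that fell, passed the filter through Cy3 alone. The sizes of these 4 differences are therefore uncertain. Melanocyte markers fell in 5 of 5 tested members, from Tyrp1 at -0.86 ± 0.16 to Mlana at -1.70 ± 0.24, and Tyr was not well above background. The summed melanocyte signal was 51441 and 46206 in the wild-type and 21488 and 16174 in the channels labelled Chuk-deleted.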

How the data were processed

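The files are the output of Agilent Feature Extraction 9.1.3.1 for 2 two-colour arrays, per the file headers. The spot intensity is the mean pixel brightness with a median local background, neither corrected, per the file headers. The processed intensity was background subtracted and dye normalised by the software, and the log10 ratio is that of processed Cy5 over Cy3, per the file headers. Flags of 0 or 1 mark spots above background, saturated or outlying. Values deposited in the series matrix equalled that log10 ratio to within 0.005.

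In R 4.3.3 with limma 3.58.1 and version 1.17.8 of the data.table package, background was corrected (normexp, offset 50), log2 ratios were loess normalised per array, giving control spots no weight, and the 51 and 18 outlier spots of arrays 1 and 2 were left out. Spots of a probe were averaged. Probes that were well above background in 1 or both channels of each array were tested with lmFit and eBayes, two-sided, and Benjamini-Hochberg adjusted over every tested probe (threshold 0.05), on 1 residual and 5.20 prior degrees of freedom. The brightest tested probe stood for a gene, and probes were named through RefSeq (GRCm38.p6) accessions, symbols or synonyms, 628 keeping their file name and 2041 having none. From each related list the text names up to 4 called genes with the largest change, with other members named after their values were seen, and from marker lists the highest and lowest and those not above background. The genes and lists were chosen with earlier results of these data known. One related list and a single gene of another are not reported here. Only 2 arrays limit the precision.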

Additional observations from a re-analysis of the deposited data

How the results depend on the processing

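The scaling of the channels decided most of what moved. With median centring alone the median of the 10 genes was 1.62, 9 of them were at least 2-fold higher on both arrays, 5 genes of the related lists fell, 10281 genes rose and 988 fell over the whole array, and 1314 genes were at least 2-fold higher and 228 at least 2-fold lower. Of the genes named by the rule, Amotl2 (0.15), Cnn3 (0.77) and the fibroblast marker Dcn (0.028) changed sign. With spike-in subtraction the median of the 10 genes was 0.052, 9 genes of the related lists rose and 57 fell, 272 genes rose and 12503 fell over the whole array, and 29 were at least 2-fold higher and 2121 at least 2-fold lower. There Cnn2 (-0.28), Actg2 (-0.13), Tpm1 (-0.51), Tpm2 (-0.14), Chuk (-0.026), Srf (-0.22), Mrtfa (-0.12), Myl6 (-0.10), Actb (-0.27), Lpp (-0.039), Egr1 (-0.20) and Crim1 (-0.13) changed sign, which follows from the subtraction by construction. The markers Myh11 (-0.22), Tnni2 (-0.26), Kdr (-0.55) and Cd68 (-0.64) changed sign in the same way. The limma prior degrees of freedom were infinite under both of these scalings (5.20 under loess), so that their calls used 1 spread shared by all probes. With the software's own log ratios 437 genes were at least 2-fold higher and 684 lower, in place of 206 and 440, and the cause was not tested.

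Leaving out 1 array gave a median of the 10 genes from 0.76 to 0.90, from 4 to 5 of them at least 2-fold higher, and over the whole array from 225 to 338 genes 2-fold higher and from 462 to 581 lower. Without array 1 the count of 2-fold higher genes was 338. A single array leaves no residual degree of freedom, so called counts were not run there. The normexp offset of 0, the other filters on dim probes, keeping outlier spots and the mean of all probes changed no direction and moved none of the counts by over 1.5 times. With the mean of all its probes Acta2 stood at 1.67. No paired analysis was possible because a replicate block needs 2 groups that share numbers, and here each log2 ratio already pairs the 2 RNAs of an array.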
